A study of Mus musculus with 4 samples.

Results

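Long unmethylated valleys are stretches of the genome in which many neighbouring CpG-bearing regions in a row carry almost no DNA methylation. They were picked here from whole-genome bisulfite sequencing of the CA1 field of the mouse hippocampus. A valley was a run of at least 10 consecutive autosomal regions of the deposited table, each with a mean over the 4 libraries of at most 10% methylation, spanning at least 5 kb from the first start to the last end. The rule found 114 valleys with 1622 regions. These were 0.201% of the 806203 autosomal regions, out of 849172 regions in all, and 3.43% of the 47242 autosomal regions at or under 10%. The levels themselves chose the valleys, so that they are low is a description and not a result. The rule used the mean of the libraries and not the difference between the groups, which was therefore compared.

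The libraries came from C57B6/J mice aged 117 d, 2 labelled Tet2+f_Camk2aCre and 2 labelled Tet2+f. Camk2aCre is read as Cre recombinase under the Camk2a promoter, which is active in excitatory neurons of the forebrain, and the series text speaks of Tet2 haploinsufficiency of glutamatergic cells. The label Tet2+f is shared by all 4 libraries, the notation is not spelled out, and no Cre group without that allele was among them. The tissue was taken whole, so each level averages cells with and without Cre. Bisulfite sequencing counts 5-methylcytosine together with 5-hydroxymethylcytosine, the form that TET enzymes make from it. The table gives percent methylation and no read counts, so the depth behind a value is unknown and no counting interval can be given. Whether the libraries of a group are from different mice is not in the labels, so the p-values measure a spread that may be technical only. Over the gene body of Tet2, which says nothing of whether the allele was deleted, the level was 72.7% and 69.3% in Tet2+f_Camk2aCre libraries, against 70.5% and 69.7% in Tet2+f libraries.

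In most mammalian cells CpG sites are methylated, and short CpG islands at gene starts are the main exception. Some genes stand instead in wide unmethylated domains, called valleys or canyons, that reach well past a single island. In many cell types these domains hold genes for transcription factors of the embryo, are bound by Polycomb repressor complexes where the gene is silent, and are kept open at their borders by DNA methylating and TET enzymes acting against each other.

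Promoters of 5 valley genes are shown to let the sequence behind the levels be seen, with that of the housekeeping gene Gapdh, which lies in a region at or under 10% but in no valley. Each runs 5′ to 3′ on the strand of its gene, covering 250 bases before and 50 after the start, from RefSeq on GRCm38.p6. Capitals mark every CG, the dinucleotide that carries the methylation measured. Irf2bp2 encodes a transcriptional co-repressor, Hmx3 and Hmx2 neighbouring homeobox factors in 1 valley, Isl1 a LIM homeobox factor of motor and sensory neurons, and Nr2f1 an orphan nuclear receptor that patterns the neocortex.

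Irf2bp2, chr8:126593937-126594236, minus strand: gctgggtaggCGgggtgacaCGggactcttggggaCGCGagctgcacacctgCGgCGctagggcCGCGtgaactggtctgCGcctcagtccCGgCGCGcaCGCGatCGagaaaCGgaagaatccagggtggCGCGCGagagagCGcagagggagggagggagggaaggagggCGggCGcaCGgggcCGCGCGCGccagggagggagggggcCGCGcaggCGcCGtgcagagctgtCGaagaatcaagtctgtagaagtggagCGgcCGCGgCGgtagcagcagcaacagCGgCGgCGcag

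Hmx3, chr7:131542713-131543012, plus strand: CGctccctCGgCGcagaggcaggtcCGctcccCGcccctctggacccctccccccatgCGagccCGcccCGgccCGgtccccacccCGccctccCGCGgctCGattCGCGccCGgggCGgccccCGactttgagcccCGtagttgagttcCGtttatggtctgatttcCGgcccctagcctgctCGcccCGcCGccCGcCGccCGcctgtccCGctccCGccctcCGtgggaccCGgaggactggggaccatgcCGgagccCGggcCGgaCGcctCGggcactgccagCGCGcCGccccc

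Hmx2, chr7:131548507-131548806, plus strand: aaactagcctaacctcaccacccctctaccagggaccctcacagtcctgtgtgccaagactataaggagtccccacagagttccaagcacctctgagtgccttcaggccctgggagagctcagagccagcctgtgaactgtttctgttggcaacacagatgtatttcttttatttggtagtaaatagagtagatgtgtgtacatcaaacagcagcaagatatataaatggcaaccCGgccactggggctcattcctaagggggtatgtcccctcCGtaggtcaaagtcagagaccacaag

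Isl1, chr13:116309639-116309938, minus strand: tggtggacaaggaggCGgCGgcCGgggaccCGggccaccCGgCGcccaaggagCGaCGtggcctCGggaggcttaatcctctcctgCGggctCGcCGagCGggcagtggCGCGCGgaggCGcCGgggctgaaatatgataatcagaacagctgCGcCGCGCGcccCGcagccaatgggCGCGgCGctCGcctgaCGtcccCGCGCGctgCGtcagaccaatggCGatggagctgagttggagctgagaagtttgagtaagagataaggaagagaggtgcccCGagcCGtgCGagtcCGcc

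Nr2f1, chr13:78198824-78199123, minus strand: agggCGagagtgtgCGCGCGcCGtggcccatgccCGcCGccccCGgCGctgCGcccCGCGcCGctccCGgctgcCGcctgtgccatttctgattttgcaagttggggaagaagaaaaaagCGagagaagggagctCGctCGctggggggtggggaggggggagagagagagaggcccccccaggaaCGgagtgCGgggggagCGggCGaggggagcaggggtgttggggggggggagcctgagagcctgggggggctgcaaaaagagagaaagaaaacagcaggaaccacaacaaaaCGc

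Gapdh, chr6:125165724-125166023, minus strand: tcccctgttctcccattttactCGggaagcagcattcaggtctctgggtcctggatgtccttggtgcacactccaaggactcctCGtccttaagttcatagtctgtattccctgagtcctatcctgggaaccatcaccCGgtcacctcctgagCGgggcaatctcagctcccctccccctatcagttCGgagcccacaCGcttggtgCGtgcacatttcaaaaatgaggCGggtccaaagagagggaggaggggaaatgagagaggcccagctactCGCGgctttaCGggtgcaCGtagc

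The Irf2bp2 and Hmx3 promoters each hold 39 CG, that of Isl1 holds 37, that of Nr2f1 holds 23 and that of Gapdh 12. The Hmx2 promoter holds 2 CG at a GC content of 50%, although it lies in the same valley as that of Hmx3. RefSeq can give a gene more than 1 start. The start printed for Hmx2, at base 131548757, is the outer end of the gene. That printed for Hmx3, at base 131542963, lies inside the gene, which begins at base 131541532. The contrast therefore holds for these starts only. The region of 1901 bp that covers the Hmx2 start was at 1.46% and 2.83% in Tet2+f_Camk2aCre libraries, against 1.90% and 3.42% in Tet2+f libraries. The region over the Hmx3 start was at 0% in both Tet2+f_Camk2aCre libraries, against 0% and 2.63% in Tet2+f libraries. Both regions are members of the valley and so at or under 10% by the rule. That over the Hmx2 start was the higher in each library, but it reaches far past the 300 printed bases. Its level is therefore not that of the 2 CG of the promoter alone. Across the 97 RefSeq promoters of 79 genes that lie in valleys, the median was 22 CG in 300 bases with a range of 2 to 47. The 9977 promoters in other regions at or under 10% had a median of 24, and all 20085 autosomal coding promoters had a median of 14. The motif searched was CG, which reads the same on both strands, and 95.6% of all these promoters hold at least 1.

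The valleys spanned 5002 to 19450 bp, with a median of 6877 bp, and added up to 923 kb. They held 10 to 26 regions each, with a median of 14. The mean level of a valley over its regions and the 4 libraries ran from 0.500% at Tnrc18 to 4.99% at Tbx5, with a median of 2.94%. Single regions of valleys had a median level of 1.89% and a maximum of 9.95%. Regions in valleys were longer than other low regions, with a median of 434.5 bp in valleys, against 290 bp in the other 45620 low regions and 2643 bp in the other autosomal regions. Their median level was also higher than that of the other low regions, at 1.89% against 0.667%. The span limit favours long regions, so that difference in length was partly set by the rule.

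The limits of the rule cut through a continuous range. Just inside the span limit lay the valleys at Phf21b with 5002 bp, Ptma with 5028 bp and Tgif1 with 5031 bp. Just outside it lay runs of 10 or more regions at Hivep2 with 4995 bp, Pou3f2 with 4935 bp and Hoxd9 with 4930 bp. The limit on regions left out 11 runs of 9 regions that were at least 5 kb long, among them those at Gata3 with 11384 bp, Cdkn2a with 10026 bp and Hoxa2 with 8515 bp. At the level limit, 29 member regions were between 9 and 10%, and 21 of the 228 regions next to a valley were between 10 and 11%, the lowest at 10.04%.

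**Figure D1:**
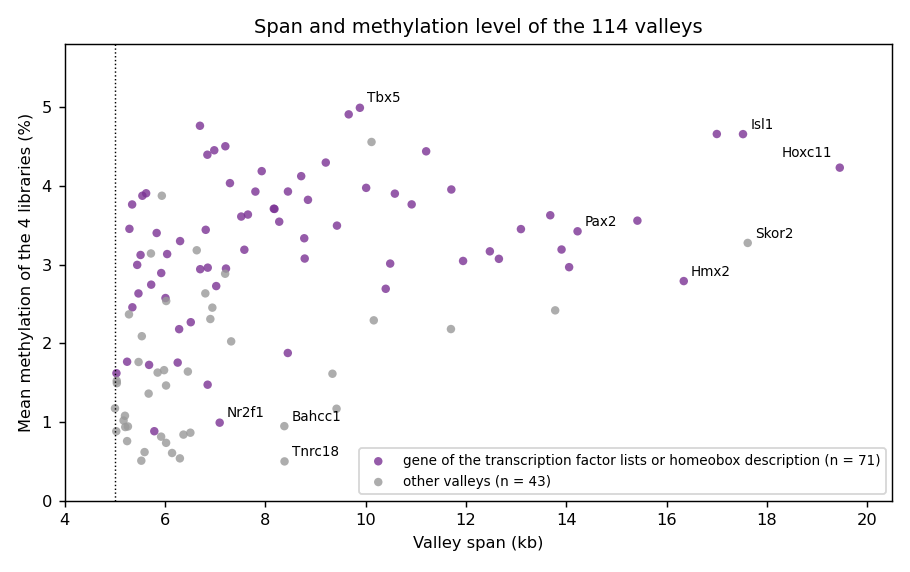
Each point is 1 of the 114 valleys, placed by its span in kb and by its mean methylation in percent over its regions and the 4 libraries. Purple points are the 71 valleys that hold a gene of the transcription factor lists or one described as a homeobox gene, grey points are the other 43, and the dotted line is the 5 kb limit. The valleys of 14 kb or more sit between 2.79% at Hmx2 and 4.66% at Hoxa3 and Isl1, while the lowest levels, from 0.500% at Tnrc18, belong to grey valleys under 9 kb.

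The valleys were largely places of developmental transcription factor genes. They overlapped 132 protein-coding genes, of which at least 112 had their start and 29 their whole length inside a valley. For 6 of the genes no strand was at hand, and these were counted as having no start inside. Hoxa4, Hoxb6 and Hoxc8 are among them although they lie wholly inside a valley. A valley held 1 coding gene in 94 cases, more than 1 in 18 and none in 2. Of the 114 valleys, 71 (62.3%) held a gene of 11 lists of transcription factor families or one whose deposited description names a homeobox. Of the 343 genes in these lists, 78 (22.7%) overlapped a valley, against 132 of 20665 autosomal coding genes (0.639%). The lists were drawn up with earlier results of these data known, and no test was made of this overlap.

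Homeobox genes made up most of these. In the 4 Hox clusters, which encode the factors that set position along the body axis, 23 of 39 genes overlapped a valley. Among LIM homeobox genes the count was 4 of 12, with Isl1 in the longest of their valleys at 17521 bp, then Lhx5 at 8784 bp, Lhx1 at 8168 bp and Lhx8 at 6696 bp. Of the paired and paired-like genes it was 7 of 30, among them Pax2 of the midbrain and kidney with 14223 bp and Uncx with 13094 bp. Of 32 homeobox genes of the NK, Dlx and related groups 6 did, led by Nkx2-1, a factor of the ventral forebrain, lung and thyroid, with 12655 bp. Of 55 other homeobox genes 14 did, among them Hmx2 and Hmx3 of the inner ear in a shared valley of 16340 bp and Lbx1 of the dorsal spinal cord and limb muscle with 13904 bp.

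Other factor families were represented less evenly. Of forkhead genes 6 of 27 lay in a valley, Foxb1 having the longest with 14055 bp. Of zinc finger and related patterning genes 10 of 47 did, among them Ebf3 with 26 regions over 10488 bp. Of GATA and nuclear receptor genes 4 of 23 did, these being Gata4, Gata6, Nr2f1 and Nr4a3. By contrast 2 of 16 Sox genes (Sox11 and Sox17), 1 of 16 T-box genes (Tbx5) and 1 of 46 bHLH genes (Neurod2) overlapped a valley. Of 45 morphogens and their antagonists 2 did, Nog, an antagonist of BMP signals, and Fgf9.

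Some regulators used in neurons of the forebrain lay in valleys. Of 30 regulators expressed in the forebrain or CA1, 5 (16.7%) overlapped a valley, against 0.639% of all coding genes. They were Neurod2, Bcl11a, Nr2f1, Pou3f3 and Sox11. The mean levels of these valleys ran from 0.99% at Nr2f1 to 1.88% at Bcl11a, all under the median of 2.94% over all valleys. Of 20 immediate early genes, which neuronal activity switches on, Egr3 and Nr4a3 did, at 2.57% and 0.883%. Pdgfra, a receptor of oligodendrocyte precursors, was the 1 of 14 oligodendrocyte markers in a valley, and Sox17 the 1 of 15 endothelial markers. The count was 0 for 20 CA1 pyramidal, 20 interneuron, 15 astrocyte and 15 microglia markers, for 27 housekeeping genes and for 33 genes of the Polycomb and DNA methylation machinery. With 0.639% of all coding genes in valleys, a count of 0 in lists this short is near the background and says nothing particular of them. With bulk tissue, a level near 0 says that nearly all cells were unmethylated there, and a rare cell type cannot be seen.

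Of 14 forebrain patterning and neuronal identity factors looked up one by one, only Neurod2 and Nr2f1 overlapped a valley. Others held low runs that missed a limit. At Sox2 the run had 10 regions and 3864 bp, and at Otx2 it had 8 regions and 5169 bp. At Pax6 the longest of 4 separate low runs had 5 regions and 1760 bp.

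The 43 valleys without a listed factor were shorter and less methylated. Their median span was 6021 bp and their median level 1.52%, against 7652 bp and 3.42% in the 71 valleys with one. Several of them covered genes for chromatin and transcription regulators, such as Sin3a (0.618%), a scaffold of a histone deacetylase complex, Arid1b (0.944%), a subunit of the BAF remodelling complex, and Brd2 (0.607%), a reader of acetylated histones. Others covered the protocadherins Pcdh7 (0.840%), Pcdh10 (0.539%) and Pcdh17 (1.64%), which are cell adhesion molecules of the nervous system, the cyclins Ccnd1 (0.814%) and Ccnd2 (2.31%), and Ptch1 (0.865%), the receptor of hedgehog proteins. The lists do not hold every transcription factor. Skor2, a co-repressor with the second longest valley of all (17615 bp, 3.27%), Skor1, Otp, Gfi1, Hic1 and Runx3 were counted among these 43. The valley over Gm21188 and Gm36079, predicted genes on chromosome 13 (13777 bp), and that over Gm20783 on chromosome 9 are uncertain, since predicted genes of this kind can have near-identical copies.

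The Hox clusters alone gave 15 valleys with 209 regions and 169748 bp, 18.4% of the total valley span. The longest valley of all, with 19450 bp, lay over Hoxc11 and Hoxc10, that over Hoxa3 and Hoxa4 had 16999 bp and that over Hoxd10 and Hoxd11 had 15416 bp. Hoxa and Hoxc had 4 valleys each, Hoxb had 5 and Hoxd had 2. Over the valleys of a cluster, the level of a library was between 3.53% and 4.22%. In Hoxc they were 3.98% and 3.97% in Tet2+f_Camk2aCre libraries, against 3.92% and 4.09% in Tet2+f libraries. In Hoxb they were 3.62% and 3.71% in Tet2+f_Camk2aCre libraries, against 3.64% and 3.64% in Tet2+f libraries.

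The DNA between the Hox valleys was itself lowly methylated. In Hoxd the 41 regions between the 2 valleys averaged 7.32% and 7.63% in Tet2+f_Camk2aCre libraries, against 8.16% and 7.82% in Tet2+f libraries. In Hoxa the 29 regions between valleys averaged 12.68% and 12.04% in Tet2+f_Camk2aCre libraries, against 12.8% and 11.8% in Tet2+f libraries, and 1 of them was over 50%. The Hoxb8 and Hoxb6 valleys were split by a single region, at 16.0% and 9.02% in Tet2+f_Camk2aCre libraries, against 7.85% and 12.4% in Tet2+f libraries. In all, 13 pairs of neighbouring valleys lay within 50 kb of each other, 18 valleys taking part, and the regions between a pair averaged at most 15.9%, except between Pdx1 and Cdx2, where 10 regions averaged 58.2%. Single regions of 73.7%, 70.4% and 50.6% lay between Hoxd10 and Hoxd3, between Hoxa3 and Hoxa10, and between Hoxb6 and Hoxb3.

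**Figure D2:**
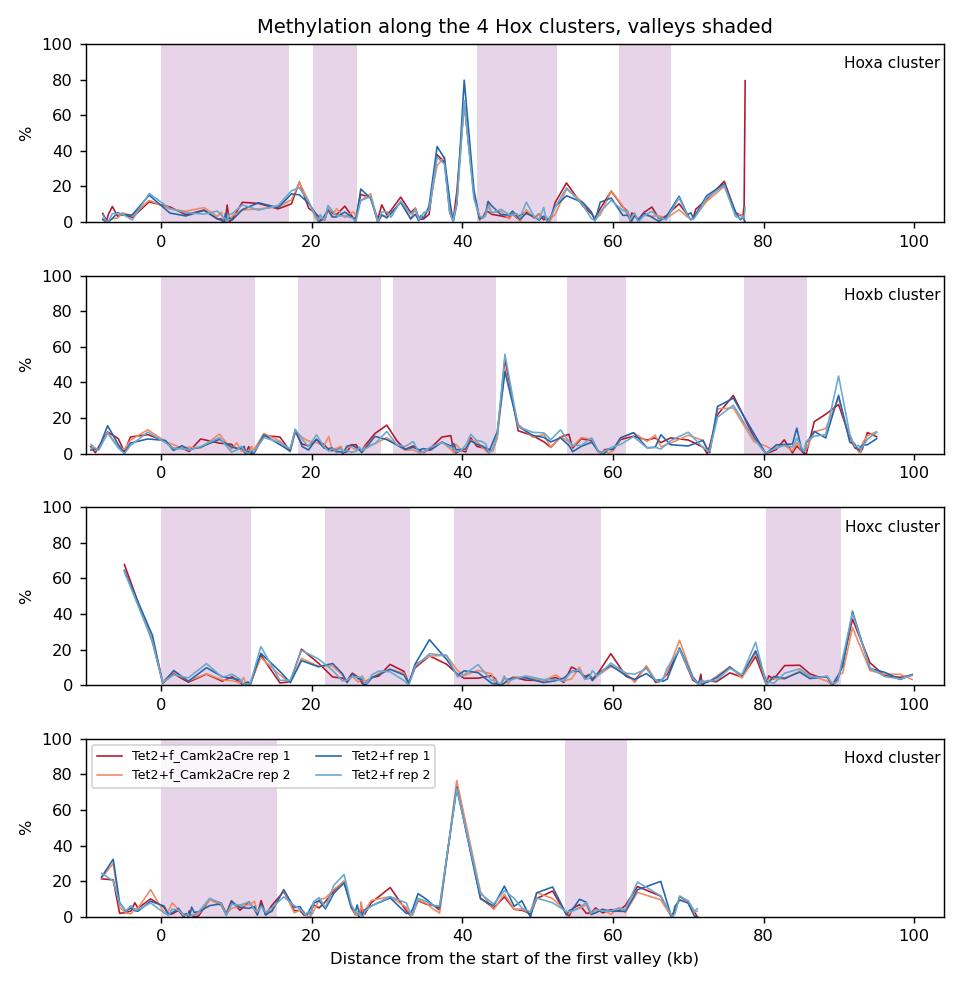
Methylation in percent of each region, drawn at its centre, along the 4 Hox clusters against the distance in kb from the start of the first valley of the cluster, with 1 line for each library, valleys shaded, and 10 kb shown on either side. The lines of the 4 libraries run together, most regions between the shaded valleys stay under 20%, and isolated methylated regions part them in the Hoxa, Hoxb and Hoxd clusters. The spike at the right end of the Hoxa panel is a short region outside any valley in Tet2+f_Camk2aCre replicate 1.

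MicroRNA genes lay in 6 valleys, 5 of which also held a coding gene. Of 8 microRNA genes there, RefSeq gave 14 mature sequences. The 6 from the best known arms are shown, with the seed, the bases 2 to 8 that pick targets, in capitals. The miR-196 pair and the pair miR-132 and miR-212 each share a seed. Those of miR-10a-5p and miR-9-5p are shared with none of the others shown.

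mmu-miR-196a-5p, Hoxb9 valley: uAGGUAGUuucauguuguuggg

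mmu-miR-196b-5p, Hoxa10 valley: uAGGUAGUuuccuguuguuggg

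mmu-miR-132-3p, Hic1 valley: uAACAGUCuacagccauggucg

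mmu-miR-212-3p, Hic1 valley: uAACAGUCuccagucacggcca

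mmu-miR-10a-5p, Hoxb3 and Hoxb4 valley: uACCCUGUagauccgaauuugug

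mmu-miR-9-5p, Mir9-2 valley: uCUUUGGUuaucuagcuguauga

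The miR-196 pair, which represses Hox genes, shares the seed AGGUAGU across valleys on chromosomes 11 and 6. The pair miR-132 and miR-212, which neuronal activity induces in the hippocampus, shares AACAGUC and lies in the valley named for Hic1, a repressor gene. That valley was at 2.22% and 2.50% in Tet2+f_Camk2aCre libraries, against 1.75% and 1.88% in Tet2+f libraries, which do not overlap but did not pass the test described below (difference 0.543 points, limma adjusted p = 0.981). The gene of miR-9, a microRNA of neural progenitors and neurons, lay with the noncoding RNA C130071C03Rik in a valley of 11699 bp with no coding gene. It was at 2.51% and 2.03% in Tet2+f_Camk2aCre libraries, against 2.07% and 2.11% in Tet2+f libraries, and these overlap. The 1 valley without any annotated gene was at chr15:85668955-85674935, with Ppara the nearest coding gene at 59975 bp. Long noncoding RNA genes overlapped 44 valleys.

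On average the level rose at the border, where the rule itself sets a step, and went on rising outside it. Counted from the edge, the first region inside had a mean of 4.28% and the second 2.56%, while the first region outside had 30.1%, the second 45.2% and the tenth 60.9%. Of the 114 valleys, 32 had neighbours under 20% on both sides, and 27 of these 32 held a listed factor or homeobox gene. Only the nearest region on each side counts here, so low methylation need not reach further. At Foxb1 the neighbours were at 12.9% and 13.7%. The 3 regions on each side of it averaged 54.5% and 55.4% in Tet2+f_Camk2aCre libraries, against 54.1% and 56.4% in Tet2+f libraries. In 4 valleys, at Gm20783, Ppp1r9b, the histone genes around H2ac8 and Phf21b, both neighbours were at 50% or more, and none of these held one. A neighbour has to be over 10% by the rule, and the median over the 228 was 21.6%.

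In the inside, at the edges and in the surroundings of the valleys, the difference between the groups was within the replicate spread. Over all 1622 regions the mean was 2.86% and 2.58% in Tet2+f_Camk2aCre libraries, against 2.59% and 2.68% in Tet2+f libraries. Replicate 1 of Tet2+f_Camk2aCre was the highest of the 4 and replicate 2 the lowest, so the groups overlapped. The mean was 2.72% ± 0.203 in Tet2+f_Camk2aCre and 2.64% ± 0.0597 in Tet2+f (SD, n = 2 each), a difference of 0.0827 points (exact permutation test over the libraries, two-sided, p = 1). The 6 possible arrangements of the libraries allow no p under 0.3333. The medians were 1.84% and 1.77% in Tet2+f_Camk2aCre libraries, against 1.72% and 1.90% in Tet2+f libraries.

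The first and last regions of the valleys were at 4.43% and 4.17% in Tet2+f_Camk2aCre libraries, against 4.32% and 4.20% in Tet2+f libraries (difference 0.0385 points, exact permutation p = 1). The flanks, 3 regions on each side and 670 in all without those of other valleys, were at 40.9% and 40.6% in Tet2+f_Camk2aCre libraries, against 40.4% and 40.8% in Tet2+f libraries (difference 0.141 points, exact permutation p = 0.667). The sign of each of these small differences depended on single libraries. Without Tet2+f_Camk2aCre replicate 1 they were -0.0606 points inside the valleys, -0.0938 at the edges and -0.0315 in the flanks. Without Tet2+f replicate 1 the flanks were at -0.0345, and without Tet2+f replicate 2 the edges were at -0.0229.

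**Figure D3:**
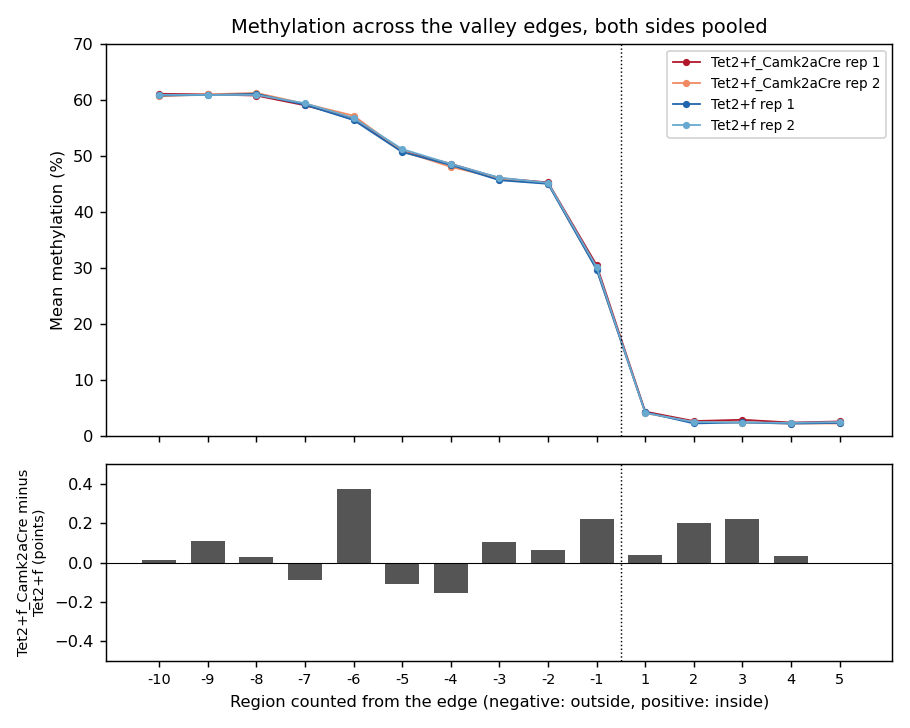
The upper panel gives the mean methylation in percent of the regions at each position counted from a valley edge, both sides of the 114 valleys pooled, with 1 line for each library, and the lower panel gives the Tet2+f_Camk2aCre mean minus the Tet2+f mean in percentage points. The 4 lines lie on each other, at 30.1% in the first region outside and 4.28% in the first inside, and no bar exceeds 0.372 points.

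The other low regions behaved in the same way in the libraries. They were at 1.78% and 1.58% in Tet2+f_Camk2aCre libraries, against 1.56% and 1.60% in Tet2+f libraries, a difference of 0.0999 points. The valleys minus these regions gave 1.08 and 0.993 points in Tet2+f_Camk2aCre libraries, against 1.03 and 1.08 points in Tet2+f libraries. The difference between the 2 differences was -0.0173 points (exact permutation test, p = 1). Valleys with a listed factor were at 3.46% and 3.13% in Tet2+f_Camk2aCre libraries, against 3.17% and 3.29% in Tet2+f libraries. The other valleys were at 1.84% and 1.64% in Tet2+f_Camk2aCre libraries, against 1.62% and 1.65% in Tet2+f libraries.

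High values of single regions were found mostly in 1 library. The number of member regions over 20% was 4 in Tet2+f_Camk2aCre replicate 1 and 0 in replicate 2, against 0 in each Tet2+f library. These 4 lay in the valleys at Gfi1, Evx2, Irf2bp2 and Egr3. Among the other low regions the number over 20% was 182 in replicate 1 and 20 in replicate 2 of Tet2+f_Camk2aCre, against 27 and 18 in the Tet2+f libraries, so replicate 1 stood apart there as well. The number of members over 10% was 48 and 19 in Tet2+f_Camk2aCre libraries, against 40 and 32 in Tet2+f libraries. The share of members at exactly 0% was 21.0% and 17.6% in Tet2+f_Camk2aCre libraries, against 22.4% and 16.8% in Tet2+f libraries.

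No single region of a valley was called different between the groups. In limma fits of the logit of the level over all 849014 regions with 4 values, 0 of the 1621 member regions tested had an adjusted p under 0.05, where 0% of all regions did (smallest adjusted p = 0.937). The 1 member left out, in the Pou3f3 valley, lacked a value in Tet2+f_Camk2aCre replicate 1. At an unadjusted p under 0.05 there were 213 members (13.1%), against a background of 4.60% of all regions and 11.8% of the other low regions. Of these members 102 were higher in Tet2+f_Camk2aCre libraries (background 2.25% of all regions) and 111 lower (background 2.35%). The logit gives large values to small changes near 0%. On the percent scale the count was 18 members (1.11%), where it was 4.96% of all regions and 0.622% of the other low regions.

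Nor did any of the 114 valleys pass when each was tested as a whole. Here the level of a valley was the mean of its regions, and the limma test ran over 80560 autosomal blocks, the valleys and all other regions taken about 10 at a time. The number with an adjusted p under 0.05 was 0 of 114, where 0% of all blocks passed, and the smallest adjusted p of a valley was 0.101. Before adjustment, 29 valleys (25.4%) had a p under 0.05, against 4.89% of all blocks and 15.7% of the 287 other blocks at or under 10%. Of these valleys 18 were higher in Tet2+f_Camk2aCre libraries (background 2.34% of all blocks) and 11 lower (background 2.56%). On the percent scale there was 1 valley (0.877%) at an unadjusted p under 0.05, where it was 4.72% of all blocks and 2.09% of the other low blocks. With an offset of 0.05 in the logit it was 11 valleys (9.65%), against 10.1% of the other low blocks and 3915 of all 80560 blocks. With the trended and robust prior it was 14.0% of valleys, against 12.9% of the other low blocks. The excess over other low blocks thus depended on the setting. Whatever their p, 61 of the 114 valleys (53.5%, background 49.1%) were higher and 53 lower in Tet2+f_Camk2aCre libraries. Both Tet2+f_Camk2aCre libraries lay above both Tet2+f libraries in 23 valleys (20.2%, background 16.0%) and below both in 18 (15.8%, background 17.5%). The median size of the difference between the groups was 0.312 points. The median gap between replicates was 0.389 points in Tet2+f_Camk2aCre and 0.373 points in Tet2+f. Means of 2 libraries vary less than single libraries, so the smaller difference between groups decides nothing.

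**Figure D4:**
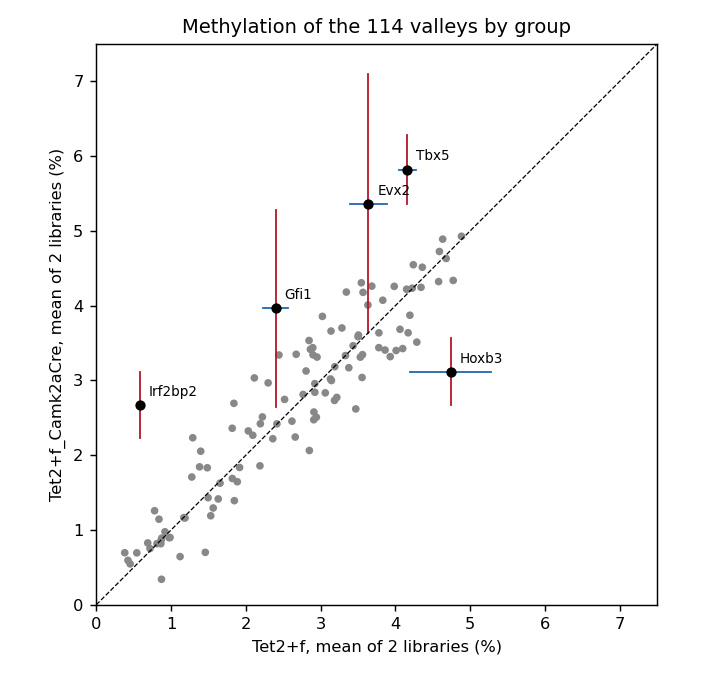
Each point is a valley, placed by its mean methylation in percent in the 2 Tet2+f libraries (horizontal) and in the 2 Tet2+f_Camk2aCre libraries (vertical), and the dashed line marks equal levels. The 5 valleys whose means differ by over 1 point are black, with red and blue bars for the range of the 2 Tet2+f_Camk2aCre and the 2 Tet2+f libraries. The other valleys lie along the line, and the red bars at Gfi1 and Evx2 are longer than their distance from it.

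The valley with the smallest p was that of Irf2bp2, the co-repressor gene whose promoter is printed above. It spans 5852 bp with 16 regions (chr8:126590139-126595990) and covers the start of the gene. Its level was 3.11% and 2.23% in Tet2+f_Camk2aCre libraries, against 0.626% and 0.544% in Tet2+f libraries. Both Tet2+f_Camk2aCre libraries lay above both Tet2+f libraries. The mean was 2.67% ± 0.622 in Tet2+f_Camk2aCre and 0.585% ± 0.0584 in Tet2+f (SD, n = 2 each). The difference of 2.09 points, or 1.23 ± 0.11 (SE) on the logit scale of limma, had an adjusted p of 0.101 and was not called. With blocks of 20 regions outside the valleys it was called (limma adjusted p = 0.0183), as were 0.00496% of these blocks in all. A trended and robust prior, chosen after seeing the data, called it as well (limma adjusted p = 0.0346), and in all 0.00745% of the blocks. It was not called on the percent scale (limma adjusted p = 0.989) or with an offset of 0.05 in the logit (limma adjusted p = 0.401).

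Short regions just inside the gene carried this difference. One of 121 bp, lying 112 to 232 bp from the gene start (chr8:126593754-126593874), was at 23.9% and 10.2% in Tet2+f_Camk2aCre libraries, against 2% and 0% in Tet2+f libraries. Another of 103 bp, lying 376 to 478 bp from the start (chr8:126593508-126593610), was at 18.1% and 9.66% in Tet2+f_Camk2aCre libraries, against 0% in both Tet2+f libraries. The 134 bp between them were at 2.50% and 0% in Tet2+f_Camk2aCre libraries, against 0% in both Tet2+f libraries. The next region into the gene, of 183 bp, was at 0% and 7.29% in Tet2+f_Camk2aCre libraries, against 0% and 1.11% in Tet2+f libraries. The region over the gene start was at 2.54% and 1.67% in Tet2+f_Camk2aCre libraries, against 1.11% and 0% in Tet2+f libraries.

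Without those short regions, which were singled out after their values were seen, the other 14 regions averaged 0.551% and 1.13% in Tet2+f_Camk2aCre libraries, against 0.573% and 0.621% in Tet2+f libraries, and the groups overlapped. Weighting regions by their length gave the Irf2bp2 valley a difference of 0.376 points (limma adjusted p = 0.929). The difference was 1.65 points without Tet2+f_Camk2aCre replicate 1 (limma adjusted p = 0.0497) and 2.53 points without replicate 2 (limma adjusted p = 0.00161), which crosses the threshold. In such fits the lone library is assumed to vary like the other group. How many reads lie behind these short regions is unknown, and the part of replicate 1 being high in low regions in general was not tested.

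**Figure D5:**
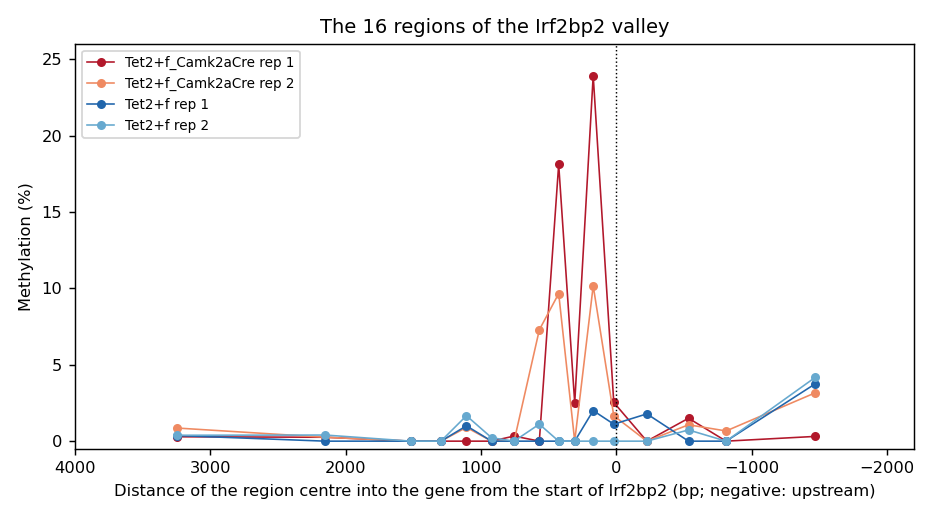
Methylation in percent of the 16 regions of the Irf2bp2 valley against the distance in bp of the region centre from the gene start, positive into the gene and negative upstream, with 1 line for each library. Both Tet2+f_Camk2aCre lines peak at the same pair of short regions just inside the gene, at 23.9% and 18.1% in replicate 1, replicate 2 has a further point at 7.29%, and the Tet2+f lines stay at or under 2% across the same stretch.

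The valleys next in order of p were far from the adjusted threshold (limma adjusted p = 0.981 for each of those that follow). Tbx5, a T-box factor of the heart and forelimb, had its valley inside the gene and away from its start, the most methylated of all. It was at 6.28% and 5.37% in Tet2+f_Camk2aCre libraries, against 4.27% and 4.05% in Tet2+f libraries (difference 1.66 points). In 9 of its 10 regions the Tet2+f_Camk2aCre mean was the higher, but the regions of a valley are not replicates. The valley was also picked by the p of the mean over these same regions, so that count adds no support. The largest differences were 4.85 and 4.41 points, in adjoining regions of 506 and 1337 bp. The Pcdh10 valley was at 0.700% and 0.693% in Tet2+f_Camk2aCre libraries, against 0.364% and 0.398% in Tet2+f libraries. The valley of Gsx1, a homeobox factor of the ventral telencephalon, was at 3.04% and 2.35% in Tet2+f_Camk2aCre libraries, against 1.81% and 1.87% in Tet2+f libraries. That of Lbx1 was at 3.58% and 3.49% in Tet2+f_Camk2aCre libraries, against 2.80% and 2.89% in Tet2+f libraries. In each of these the groups did not overlap, with differences of 0.316 points at Pcdh10, 0.853 at Gsx1 and 0.688 at Lbx1. The Gsx1 difference was 0.505 points without Tet2+f_Camk2aCre replicate 1, and that of Lbx1 was 1.05 points when regions were weighted by length.

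In the other direction the smallest p belonged to Bbc3, which encodes the pro-apoptotic protein PUMA. Its valley was at 0.802% and 0.601% in Tet2+f_Camk2aCre libraries, against 1.80% and 1.11% in Tet2+f libraries (difference -0.757 points). A valley over Hoxb3 was at 2.67% and 3.56% in Tet2+f_Camk2aCre libraries, against 5.28% and 4.19% in Tet2+f libraries (difference -1.62 points). The other Hoxb3 valley, shared with Hoxb4, differed the opposite way, at 4.52% and 4.10% in Tet2+f_Camk2aCre libraries, against 3.19% and 3.90% in Tet2+f libraries. Ptma, Hoxc13 and Brd2 followed, with differences of -0.477, -0.851 and -0.531 points. Without Tet2+f replicate 1 the differences were -0.413 points at Bbc3, -0.254 at Brd2 and -1.08 at Hoxb3. Without Tet2+f replicate 2 Brd2 was at -0.809 points, and weighting by length gave Hoxc13 -1.84 points. Among these Hoxc13 was at 2.38% and 2.86% in Tet2+f_Camk2aCre libraries, against 3.34% and 3.61% in Tet2+f libraries, and none of the 5 passed the adjusted threshold.

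In the valleys of Evx2 and Gfi1, Tet2+f_Camk2aCre replicate 1 stood above the other 3 libraries. Evx2, a homeobox gene at the end of the Hoxd cluster, was at 7.10% and 3.63% in Tet2+f_Camk2aCre libraries, against 3.89% and 3.39% in Tet2+f libraries. Neighbouring regions of 177 bp each were at 26.1% and 16.3% in Tet2+f_Camk2aCre replicate 1 and at 1.11% and 0% in its replicate 2. Gfi1, a zinc finger repressor of blood and inner ear cells, was at 5.28% and 2.65% in Tet2+f_Camk2aCre libraries, against 2.56% and 2.23% in Tet2+f libraries. There a region of 152 bp was at 37.5% and 0% in Tet2+f_Camk2aCre libraries, against 0.775% and 1.11% in Tet2+f libraries. In the region of 301 bp beside it the groups did not overlap, at 8.67% and 3.23% in Tet2+f_Camk2aCre libraries, against 0.725% and 1.06% in Tet2+f libraries. A region of 321 bp was at 2.84% and 1.90% in Tet2+f_Camk2aCre libraries, against 0.510% and 0% in Tet2+f libraries. One of 300 bp was at 3.33% and 2.23% in Tet2+f_Camk2aCre libraries, against 1.09% and 0.841% in Tet2+f libraries. Other regions of this valley did not overlap in the lower direction. One of 326 bp was at 1.16% and 0.567% in Tet2+f_Camk2aCre libraries, against 2.74% and 1.45% in Tet2+f libraries. One of 333 bp was at 0% and 1.29% in Tet2+f_Camk2aCre libraries, against 1.63% and 1.58% in Tet2+f libraries. The share of single regions without overlap was not taken over all regions, so these say nothing particular of this valley. Among all blocks it was 16.0% with Tet2+f_Camk2aCre above and 17.5% with it below. Without Tet2+f_Camk2aCre replicate 2 the Gfi1 valley would pass with a difference of 2.88 points (limma adjusted p = 0.0308), while with both replicates its adjusted p was 0.981.

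Some single regions differed by several points. A member can differ by up to 20 points between the groups under the rule, and 25 of the 1622 differed by over 5 points, 13 higher and 12 lower in Tet2+f_Camk2aCre libraries. The share past 5 points was not taken over all regions or the other low regions, so the count says nothing particular of valleys.  Among those higher, adjoining regions of 179 and 145 bp in the valley of Ebf3, a factor of neuronal differentiation, were at 6.83% and 8.80% in Tet2+f_Camk2aCre replicate 1 and 4.69% and 4.08% in replicate 2, against 0.781% and 0% in Tet2+f replicate 1 and 0% and 1.35% in replicate 2. Among those lower, a region of 1390 bp in the valley of Pax3, a factor of the neural crest and muscle, was at 4.17% and 3.32% in Tet2+f_Camk2aCre libraries, against 11.2% and 7.73% in Tet2+f libraries. Hic1 had one region in each class. One of 333 bp was at 10% and 7.83% in Tet2+f_Camk2aCre libraries, against 4.17% and 0% in Tet2+f libraries, and one of 955 bp was at 7.89% and 5.39% in Tet2+f_Camk2aCre libraries, against 12.6% and 11.2% in Tet2+f libraries. The adjusted p over all regions was 0.937 or more for each of the 25.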

How the data were processed

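Per the labels' protocols, DNA of CA1 tissue was bisulfite converted with the Accel-NGS Methyl-Seq library kit and sequenced in paired reads. The authors deposited 1 table of percent methylation for each region and library on mm10. Per the submitters' processing notes, the tools were Bismark 0.19.0, Trim Galore 0.4.5, FastQC 0.11.5 and edgeR, with no roles. Not given in the sources used here are how regions were drawn and any coverage minimum. Groups follow the library titles.

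Valleys were called from the mean over the libraries with a value. Regions and blocks were tested in R 4.3.3 with limma 3.58.1 and moderated variances on the logit of the level, log2((share + 0.01) / (1 - share + 0.01)), where the share is the level divided by 100, and Benjamini-Hochberg adjustment at 0.05 over the whole table. The scripts were tested on simulated data. Means over classes of regions were compared in Python 3.11.15 with exact permutation tests, two-sided, on the 4 library values. A difference is in percentage points.

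Gene positions and sequences came from RefSeq on GRCm38.p6, the assembly behind mm10, with strands from the deposited table. Valleys were named by their coding gene with the longest overlap. Named were the 10 longest, the 5 with the smallest p in each direction, the Hox clusters, 14 forebrain factors and list members; others, such as Evx2 and Gfi1, were picked once their values were known. The members and lists were chosen with earlier results of these data known. Alternatives varied the limits, scale, offset, weighting, blocks, variance prior and libraries. Replicate numbers were not taken to pair libraries, because the labels name nothing that a number shares and 2 pairs are too few to show it.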

Additional observations from a re-analysis of the deposited data

How the results depend on the processing

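The number of valleys moved with the limits. There were 29 valleys with 402 regions at a level limit of 5%, 180 with 2762 at 15%, 43 with 772 for at least 15 regions, 249 with 3127 from 3 kb, 25 with 453 from 10 kb and 64 with 869 where every library was at or under 10%, against 114 with 1622. Leaving out a library gave 113 to 117, and breaking runs at missing values, chosen after seeing the data, 113. The region test passed 0 members under every alternative run. The valley test passed 1 valley, Irf2bp2, with blocks of 20 regions (limma adjusted p = 0.0183) and with a trended and robust prior, chosen after seeing the data (limma adjusted p = 0.0346), and 0 to 2 valleys (Irf2bp2, Gfi1) without a library. With the replicate number as a block it passed 1 valley, Irf2bp2 (limma adjusted p = 0.00551), and 0 regions. The deviations of same-numbered libraries correlated at 0.0852 over the 114 valleys and at 0.0137 over all blocks. The cause was not tested. On the percent scale, with an offset of 0.05 and with length weighting, 0 valleys passed. The other 9 named valleys passed under none of the alternatives. All 10 kept their direction under length weighting. Leaving out a library cannot reverse a valley whose groups do not overlap, so a kept direction there shows nothing. The other settings leave a difference in points as it is.

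Leaving out a library gave differences of -0.0606 to 0.226 points over the members, -0.0938 to 0.171 at the edges, -0.0345 to 0.317 in the flanks and -0.0633 to 0.0288 for valleys minus other low regions. The flanks were at -0.0716 points when taken within 5000 bp, and the valleys at 0.0254 points against low regions in runs of 1 to 3. Without the Irf2bp2, Evx2 and Gfi1 valleys, left out after seeing the data, the members differed by 0.0346 points (exact permutation p = 1) and valleys minus other low regions by -0.0653 (exact permutation p = 0.3333). At the 5% limit the members differed by 0.105 points (exact permutation p = 0.3333), the smallest p possible. The depth is unknown, and each group has 2 libraries.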
